A study of Mus musculus with 9 samples.

Results

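The genes described here are 8 complement components and receptors, measured in sorted lung macrophages: the 3 chains of C1q (C1qa, C1qb and C1qc), the central component C3, factor B (Cfb), properdin (Cfp) and the receptors of the C3a and C5a peptides (C3ar1 and C5ar1). They were found by gene symbol or an older alias in the platform annotation, which gave 8 probes of 46237 on the array, 1 per gene. All 8 passed the detection filter, met by any probe with a detection p below 0.05 in 3 or more of the 9 arrays. C1qc and C3ar1 passed only through the Pparg-deficient group, so a higher level there was a condition of their being tested.

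Gene expression was measured on 9 single-colour Illumina beadchip arrays of lung macrophages sorted by surface SiglecF and CD11b; the mice were C57/BL6 females aged 8 weeks. Pparg-deficient cells (3 arrays, titled Hom int pop) came from mice with the genotype label Pparg-/-.LysMCre. Homozygous wild type cells (3 arrays, titled Hom Mph) came from mice labelled with that genotype too, but their cell type label reads wild type. Heterozygous cells (3 arrays, titled Het Mph) came from Pparg-/+.LysMCre mice and are called wild type too. All groups carry the LysMCre transgene, in which the LysM promoter of myeloid cells drives the recombinase, so no group is free of Cre. Beyond the sort, no source says what set the wild type cells of this genotype apart from the deficient ones. By the beadchip numbers in the titles, the 3 deficient arrays shared 1 slide and all 6 control arrays another, so slide and group cannot be told apart in any comparison of deficient cells, while the controls were compared within 1 slide. Nothing says that replicate numbers stand for separate mice, so the p-values rest on a spread among arrays that may be technical. The titles use the same numbers, Hom1 to Hom3, for both groups of homozygous genotype. Their arrays may thus come from the same mice, and the main fit did not pair them.

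Complement is a cascade of plasma and locally made proteins that tags particles for uptake. C1q, built from its A, B and C chains and made largely by macrophages and their relatives, starts the classical pathway and also binds dying cells. C3 is the component on which all routes converge, factor B and properdin form and stabilise the alternative pathway's C3-cleaving enzyme, and the C3a and C5a peptides released on the way act on leukocytes through C3ar1 and C5ar1. Tissue macrophages of many organs are rich in C1q transcripts, whereas mouse alveolar macrophages are known for low levels of them.

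In the data, C1qb and C3ar1 were higher in Pparg-deficient cells than in the mean of both control groups, by log2 differences of 3.50 and 2.81, and the C3ar1 transcript was not detected on any control array. C1qc had a difference of the same sign that did not pass the test, and C1qa, the remaining chain, had almost none. C3, factor B, properdin and C5ar1 were detected on all 9 arrays, and none of them passed the test in any comparison. For C3, factor B and properdin the fitted difference between the 2 control groups was larger than that between deficient cells and the mean of both. Against single control groups this held for C3 and factor B only. Properdin differed by 0.73 between deficient and heterozygous cells and by 0.63 between the controls.

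Upstream sequences of the 3 members with the largest differences are shown because these genes had higher values in the same group; they are the 250 bases before the annotated start of each gene in RefSeq (GRCm38.p6), all on the minus strand, written 5′ to 3′. Capitals mark matches, on either strand, to GAGGAA (the core bound by the myeloid factor PU.1), AGGTCA (the half-site of nuclear receptors such as PPARg) and TGANTCA (bound by AP-1). C1qb lies at chr4:136886201-136886450, C1qc at chr4:136892915-136893164 and C3ar1 at chr6:122856158-122856407.
C1qb: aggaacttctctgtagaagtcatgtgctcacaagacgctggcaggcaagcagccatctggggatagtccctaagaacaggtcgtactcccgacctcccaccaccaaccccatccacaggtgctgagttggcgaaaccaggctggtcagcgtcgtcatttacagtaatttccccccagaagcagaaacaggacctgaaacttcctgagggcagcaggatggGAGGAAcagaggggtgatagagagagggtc
C1qc: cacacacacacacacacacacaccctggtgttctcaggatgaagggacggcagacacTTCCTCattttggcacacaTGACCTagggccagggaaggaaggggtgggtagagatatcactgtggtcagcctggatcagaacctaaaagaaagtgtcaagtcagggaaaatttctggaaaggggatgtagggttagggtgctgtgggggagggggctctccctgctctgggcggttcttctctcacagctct
C3ar1: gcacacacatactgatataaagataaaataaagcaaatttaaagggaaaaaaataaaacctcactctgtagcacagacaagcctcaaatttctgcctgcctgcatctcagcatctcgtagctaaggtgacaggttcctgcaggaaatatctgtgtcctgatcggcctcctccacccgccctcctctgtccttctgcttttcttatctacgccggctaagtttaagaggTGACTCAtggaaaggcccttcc
The C1qb window held GAGGAA 30 bases before the start, and the C1qc window held it on the opposite strand 193 bases before the start, beside AGGTCA at 174 bases on the same opposite strand. C3ar1 held TGANTCA 22 bases before the start. Of all 32851 such windows, 23.3% held GAGGAA, 14.0% AGGTCA and 6.75% TGANTCA. Among the 6 members with a window in the table, GAGGAA was found in 2 and AGGTCA in 2, the second of these being C3. A match is a string of letters and not a shown binding site. In the RefSeq annotation C1qb, C1qc and C1qa are neighbours on chromosome 4 with 0 other genes between them.

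Pparg itself, by its brightest probe, read 7.58, 7.23 and 7.76 (log2 signal) in deficient cells, 9.71, 9.15 and 8.13 for homozygous wild type and 9.46, 9.36 and 9.55 for heterozygous cells. The 3 deficient values were the lowest of the 9, but the difference of -1.70 did not pass over all probes (limma adjusted p = 0.0654), and the position of the probe with respect to the deleted part is not known. The median raw signal of an array ran from 146 to 184 in the deficient group, 145 to 242 in the homozygous wild type group and 198 to 290 in the heterozygous group, and from 37.8% to 42.5% of probes were detected per array. Of 11 alveolar macrophage markers 8 were measured, and Siglecf, Marco, Car4, Chil3, Plet1, Itgax and Pparg were detected on all arrays of each group by at least 1 probe. Fabp4 was not detected on any array. In bulk samples such as these, fewer cells of a type and less RNA per cell cannot be told apart.

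**Figure D1:**
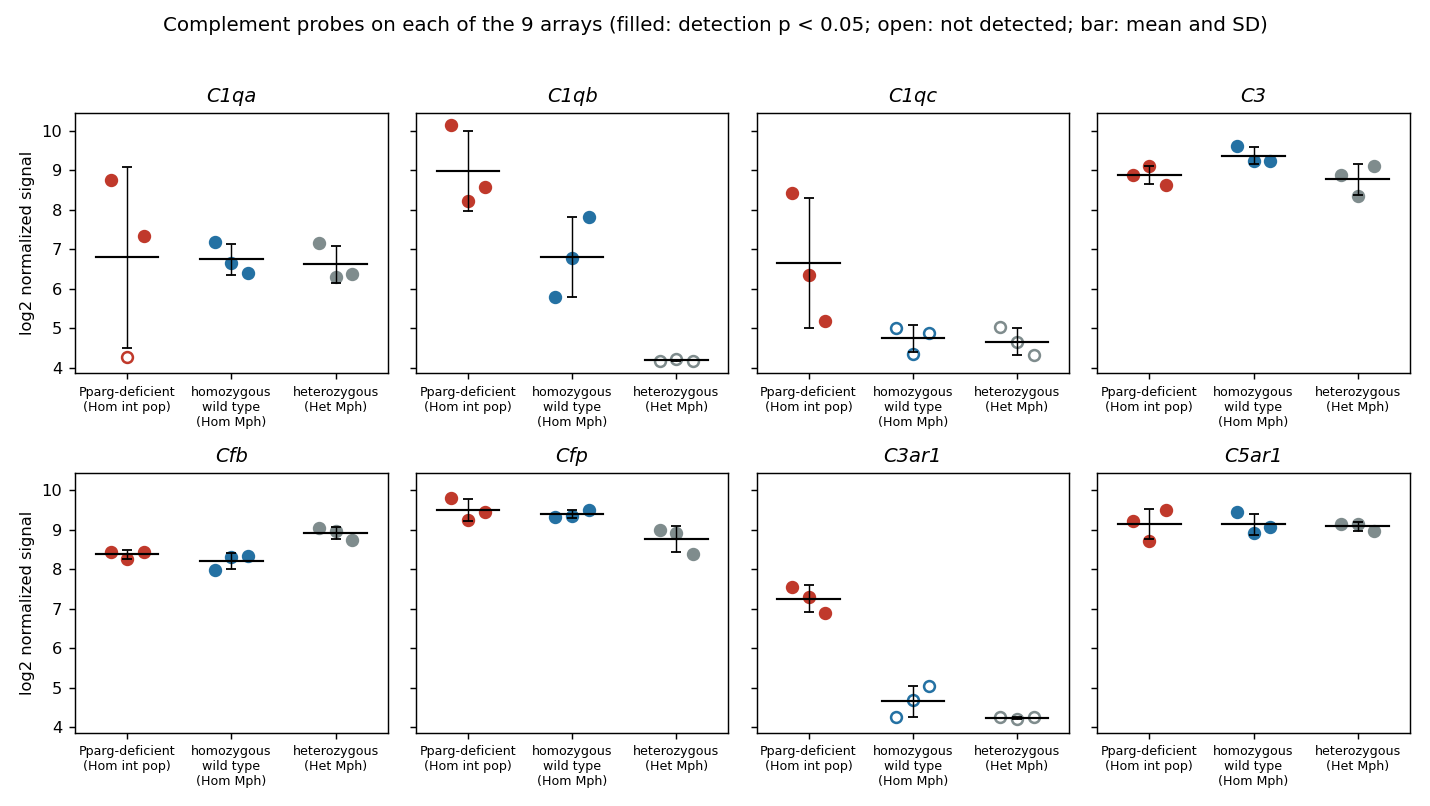
Log2 normalized signal (y axis, each panel) of the 8 complement probes on every array, with the groups on the x axis. Filled points had a detection p under 0.05, open points were not detected, and the bar and whiskers give the group mean and SD (n = 3). C3ar1 and C1qc were detected in deficient cells only, and C1qb was highest in deficient, intermediate in homozygous wild type and not detected in heterozygous cells.

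The C1q chains were examined first. The C1qb probe (ILMN_2619620) had raw signals of 1292, 439 and 492 in deficient cells, 170, 357 and 417 for homozygous wild type and 129, 154 and 173 for heterozygous cells. After background correction and quantile normalization these were 10.15, 8.23 and 8.58 (log2) in deficient cells, 5.79, 6.77 and 7.81 for homozygous wild type and 4.17, 4.20 and 4.16 for heterozygous cells. Deficient replicate 1 stood well above the other deficient arrays, all 3 deficient arrays lay above all controls, and all homozygous wild type arrays lay above the heterozygous ones, on which the probe was not detected. C1qb averaged 8.98 ± 1.02 in deficient cells, 6.79 ± 1.01 for homozygous wild type and 4.18 ± 0.02 for heterozygous cells (SD, n = 3 each). Values near 4.2 are the floor set by the background correction, so the small SD of the heterozygous group is not a measure of its precision. The fit shares 1 estimate of the spread over the 3 groups. This floor can thus make the SE and p of every C1qb comparison too small.

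Against both controls together C1qb was called, with a log2 difference of 3.50 (SE 0.50, limma adjusted p = 0.0143). Since the heterozygous arrays give only a bound, the fold is written as at least 8.78. For this bound each dim array counts with its own value or with the lowest signal detected on it, whichever is higher. This and every later such bound hold on the normalized scale only. They leave out the spread among arrays and change with the background correction. Against heterozygous cells C1qb was at least 16.9-fold higher (log2 difference 4.80, limma adjusted p = 0.00542), a call that ended with the arrays' median raw signal as a covariate (0.0556). Against homozygous wild type cells it was 4.57-fold higher by the fitted difference of 2.19 (SE 0.58), and this did not pass (limma adjusted p = 0.298). Homozygous wild type cells in turn differed from heterozygous cells by 2.61 (SE 0.58, limma adjusted p = 0.32), on 1 slide and without overlap, at least 3.69-fold. The call against both controls ended without deficient replicate 1 (log2 difference 2.90, limma adjusted p = 0.0789), with both controls fitted as 1 group (0.126), with every probe tested (0.0727) and with that covariate (0.0871). Without background correction the difference was 1.81 and remained called.

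C1qc (ILMN_2715840) had raw signals of 473, 212 and 201 in deficient cells, 152, 206 and 218 for homozygous wild type and 212, 215 and 242 for heterozygous cells. On this scale the groups overlapped, and only deficient replicate 1 stood apart. On the normalized scale C1qc read 8.43, 6.34 and 5.19 in deficient cells, 5.00, 4.34 and 4.87 for homozygous wild type and 5.02, 4.64 and 4.31 for heterozygous cells. The 3 deficient arrays were then the highest of the 9, the lowest of them close to the highest control array, and the probe was not detected on any of the 6 control arrays. Its log2 difference from both controls was 1.96 (SE 0.59), a fold of at least 3.28 that did not pass (limma adjusted p = 0.215), and without background correction the difference was 0.68. With deficient replicate 1 left out and the same probes kept, the difference was 1.09 (limma adjusted p = 0.455).

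C1qa (ILMN_2776431) read 8.76, 4.28 and 7.35 in deficient cells, 7.17, 6.65 and 6.41 for homozygous wild type and 7.17, 6.31 and 6.37 for heterozygous cells. It was detected on 8 of the 9 arrays and was missing on deficient replicate 2, the array with the lowest share of detected probes, where both other chains were detected. The deficient group thus held both the highest and the lowest C1qa value of the series. The log2 difference from both controls was 0.11 with a 95% interval from -1.65 to 1.88 and its adjusted p was 0.969 in the limma fit. Leaving out deficient replicate 1 gave -0.89 and leaving out deficient replicate 2 gave 1.35, neither called. In all 3 chains deficient replicate 1 was the highest array of the series.

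**Figure D2:**
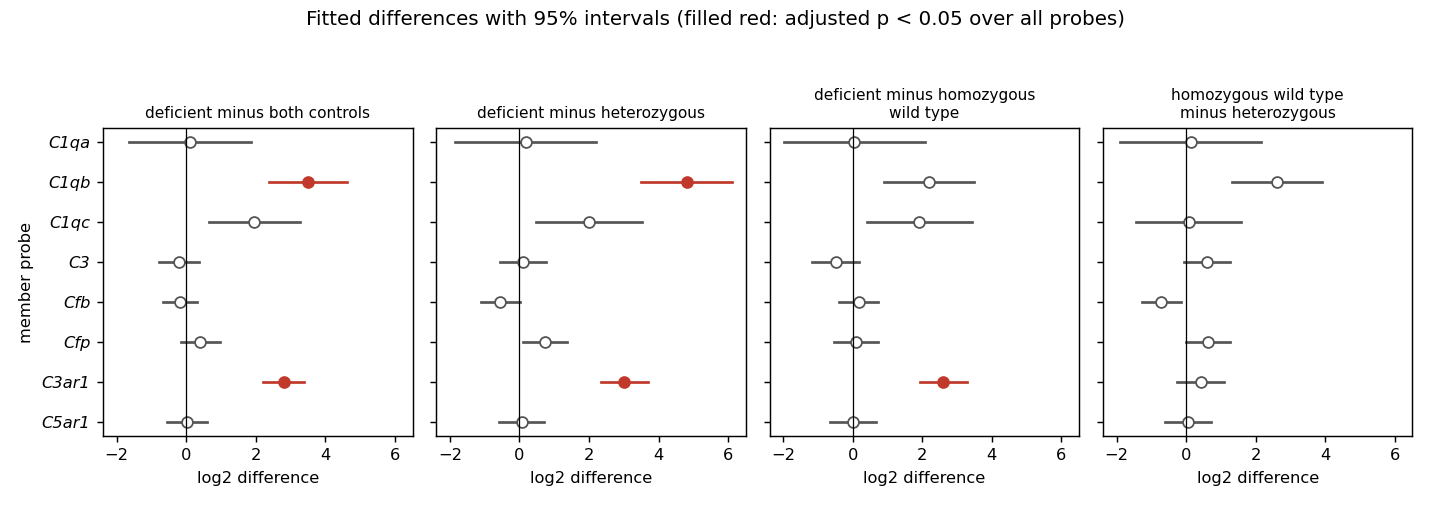
Log2 difference (x axis) of each complement probe (y axis) in the 4 comparisons, with 95% intervals from the limma fit over 9 arrays. Red filled points passed an adjusted p of 0.05 over all 21946 probes: C1qb and C3ar1 against both controls and against heterozygous cells, and C3ar1 against homozygous wild type cells. Differences of C1qb, C1qc and C3ar1 depend on the background correction. All of them rest on a group below background, except that of C1qb between deficient and homozygous wild type cells.

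The receptors of the anaphylatoxins, the peptides C3a and C5a, follow. C3ar1 (ILMN_2709211), the receptor of C3a, had raw signals of 299, 288 and 274 in deficient cells, 121, 241 and 224 for homozygous wild type and 154, 158 and 223 for heterozygous cells. All 3 deficient arrays were the highest on this scale too, and no control array reached a detection p under 0.05, homozygous wild type replicate 3 coming closest at 0.0594. The normalized values were 7.56, 7.30 and 6.89 in deficient cells, 4.25, 4.68 and 5.03 for homozygous wild type and 4.24, 4.21 and 4.25 for heterozygous cells. C3ar1 averaged 7.25 ± 0.34 in deficient cells, 4.65 ± 0.39 for homozygous wild type and 4.24 ± 0.02 for heterozygous cells (SD, n = 3 each). The heterozygous values are again at the floor, and their small SD enters the shared spread and can make the SE and p of C3ar1 too small.

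By the same bound on the normalized scale, C3ar1 in deficient cells exceeded both controls at least 5.08-fold (log2 difference 2.81, SE 0.26, limma adjusted p = 0.00135). It passed against each control alone. The difference was 3.01 against heterozygous cells (limma adjusted p = 0.00207) and 2.60 against homozygous wild type cells (limma adjusted p = 0.0101), at least 5.08-fold and at least 5.07-fold. It was the 1 member called against homozygous wild type cells. Against both controls it was called under every alternative in which it passed the filter, with limma adjusted p from 0.000777 to 0.0161, and leaving out each deficient array with the same probes kept gave 2.68 to 3.01. C3ar1 could pass the filter only through deficient cells, so these repeated calls are not independent support. The size was not stable: without background correction the difference was 0.98, and in the authors' normalized table it was 0.98 as well. The call against homozygous wild type cells ended when only those 2 groups were fitted (limma adjusted p = 0.0837), without homozygous wild type replicate 2 (0.0588) and, with the same probes kept, without deficient replicate 1 (0.065). It also ended with the replicate number as a block over the homozygous arrays alone (limma adjusted p = 0.381), a fit that called 0 probes.

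C5ar1 (ILMN_2595052), the receptor of C5a, read 9.22, 8.72 and 9.49 in deficient cells, 9.44, 8.92 and 9.06 for homozygous wild type and 9.15, 9.15 and 8.96 for heterozygous cells. The groups overlapped throughout. The log2 difference from both controls was 0.03 with a 95% interval from -0.54 to 0.60 (limma adjusted p = 0.974), which does not contain the difference of C3ar1. The 2 receptors were not tested against each other.

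Among the alternative pathway genes, C3 (ILMN_2759484) read 8.88, 9.10 and 8.64 in deficient cells, 9.61, 9.24 and 9.25 for homozygous wild type and 8.87, 8.34 and 9.12 for heterozygous cells. All homozygous wild type arrays were above all deficient and all heterozygous arrays, while those 2 groups overlapped. The log2 difference was -0.50 against homozygous wild type cells (95% interval -1.16 to 0.17) and 0.10 against heterozygous cells (-0.57 to 0.76), neither called (limma adjusted p = 0.753 and 0.911).

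Factor B showed another order. Cfb (ILMN_1230853), the protease subunit of the alternative C3 convertase, read 8.44, 8.26 and 8.44 in deficient cells, 7.99, 8.30 and 8.34 for homozygous wild type and 9.05, 8.98 and 8.75 for heterozygous cells. The heterozygous arrays were the 3 highest, and both groups of homozygous genotype overlapped below them. The log2 difference was -0.55 in deficient cells (SE 0.25, limma adjusted p = 0.387) and -0.72 in homozygous wild type cells (SE 0.25, limma adjusted p = 0.71), each against heterozygous cells and neither called.

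Properdin was lowest in heterozygous cells. Cfp (ILMN_1228320), which stabilises that convertase, read 9.80, 9.24 and 9.45 in deficient cells, 9.34, 9.35 and 9.51 for homozygous wild type and 9.00, 8.92 and 8.40 for heterozygous cells. Here the heterozygous arrays were the 3 lowest. The differences from them were 0.73 in deficient cells (SE 0.28, limma adjusted p = 0.313) and 0.63 in homozygous wild type cells (SE 0.28, limma adjusted p = 0.782), while deficient and homozygous wild type cells differed by 0.10 (95% interval -0.54 to 0.73). The 2 comparisons share their heterozygous arrays.

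Counted over the members, 2 of 8 were called against both controls, both higher, where 0.688% of the 21946 probes were called in either direction and 0.524% were called higher. At an unadjusted p under 0.05 there were 3 members, beside 12.1% of all probes. Against heterozygous cells 2 of 8 were called, both higher (1.02% of all probes in either direction, 0.811% higher), and 4 had an unadjusted p under 0.05 (13.4%). Against homozygous wild type cells 1 of 8 was called, higher (0.173% in either direction, 0.118% higher), and 3 had an unadjusted p under 0.05 (7.81%). Between homozygous wild type and heterozygous cells the limma fit called 0 of 8 (0.0228% in either direction, 0.0182% higher), and 2 had an unadjusted p under 0.05, C1qb and Cfb (6.38%). The median log2 difference of the 8 members from both controls was 0.26, beside -0.07 over all probes. Arrays of deficient cells were all above the controls for 3 members (C1qb, C1qc and C3ar1), as for 3.28% of all probes, and all below for 0 members, against 2.98%. C1qc and C3ar1 could pass the filter only by being detected in deficient cells, so their part of these counts carries no information. Against heterozygous cells alone 4 members were all higher (9.88% of all probes) and 1 all lower (11.7%), and against homozygous wild type cells 3 were all higher (6.09%) and 1 all lower (6.23%). Homozygous wild type arrays were all above the heterozygous ones for 3 members (5.46%) and all below for 1 (6.7%).

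**Figure D3:**
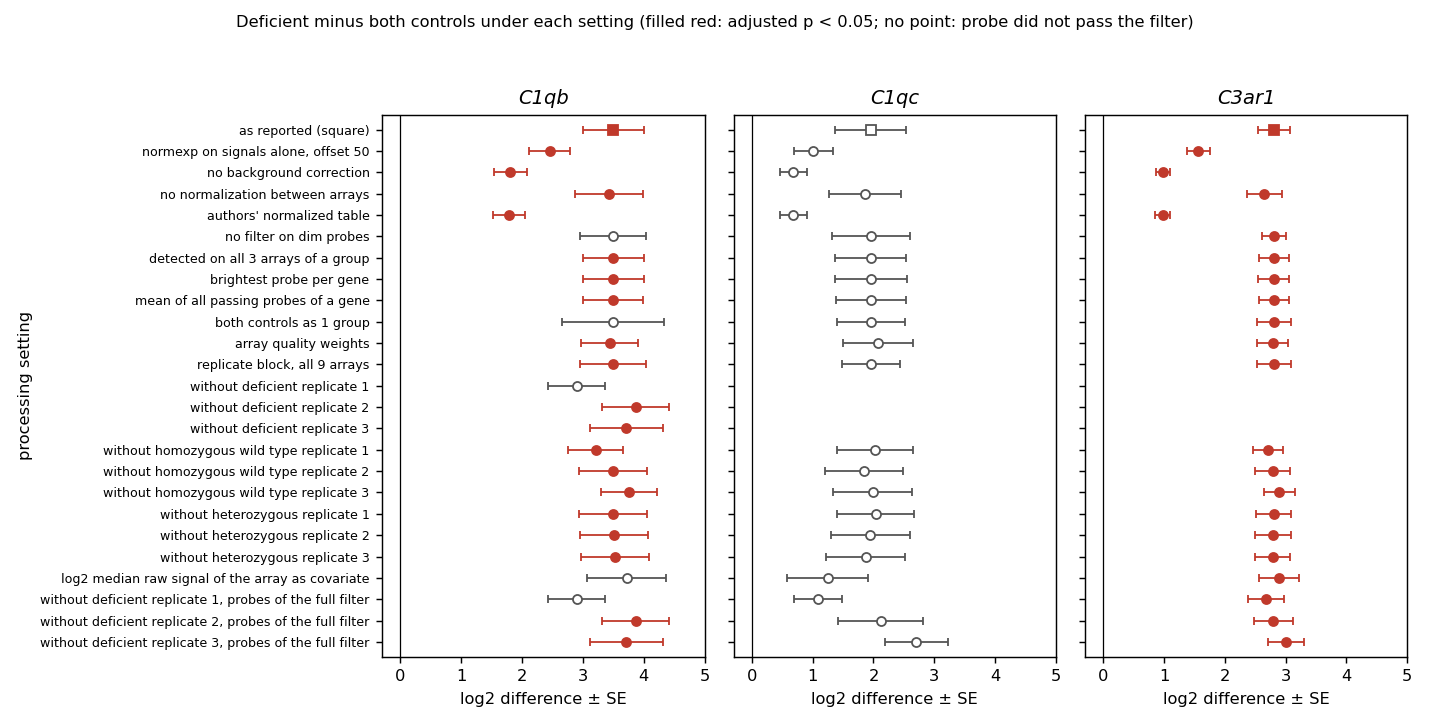
Log2 difference (x axis, with SE) of C1qb, C1qc and C3ar1 between deficient cells and both controls under each processing setting (y axis). Red filled points passed an adjusted p of 0.05. C3ar1 was called wherever it has a point, C1qc nowhere, and the 2 settings without background correction or from the authors' table gave the smallest differences in all 3 genes. C1qc and C3ar1 could pass the filter only through deficient cells.

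Genes with like profiles were sought by the root mean square difference of log2 signals over the 9 arrays, each profile centred on its own mean, among 1 probe per named gene. This is a description with no test. Nearest to C3ar1 was Colec12, a collectin that acts as a scavenger receptor, at 0.29 (the C3ar1 profile itself varies by 1.36). Tns3, a focal adhesion protein, followed at 0.34, then Anpep, an ectopeptidase of myeloid cells, at 0.34, Stx11, a syntaxin of immune cells, at 0.37 and Aqp9, a water and glycerol channel, at 0.39. The mean profile of the 3 C1q chains had no neighbour as close, with Fkbp11 at 0.48, Galnt2 at 0.49, Dorz1 at 0.51, Rai14 at 0.52 and Ebi3 at 0.55 (the profile varies by 1.19). Between the chains themselves the differences were 2.14 for C1qa and C1qb, 1.34 for C1qa and C1qc and 1.45 for C1qb and C1qc. Both C1qc (0.82) and C1qb (1.07) were nearer to C3ar1 than to either other chain. C3ar1, C1qc and the Colec12 probe used here were detected on no control array. Likeness among them thus rests largely on background values and on the filter, and carries no information on shared regulation.

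The rest of the pathway was followed in 52 other complement genes, of which 28 had a passing probe, 20 were on the array without one and 4 had no named probe. Taking the brightest passing probe of each gene, the limma fit against both controls called 1 of the 28 higher, Colec12, and 0 lower, where 0.688% of all probes were called in either direction and 0.524% higher. At an unadjusted p under 0.05 there were 3 of 28 higher and 0 lower, beside 12.1% of all probes in either direction. Over all 39 passing probes of these genes, 5 were higher and 2 lower at that level, the lower ones being the dimmer probes of Fcnb and Csmd1. The median log2 difference by the brightest probe was -0.18, beside -0.07 over all probes. Colec12 was called by 2 probes, at least 4.78-fold and at least 3.59-fold higher (fitted differences 2.89 and 2.49, limma adjusted p = 0.00135 for both). Both were detected on all 3 deficient arrays and on no control array, so they could pass the filter only through deficient cells and their call adds no information to the count. The other passing Colec12 probe, detected on no deficient array, differed by -0.29 (limma adjusted p = 0.769). By its brightest probe it read 7.39, 7.52 and 6.53 in deficient cells, 4.24, 4.32 and 4.24 for homozygous wild type and 4.25, 4.32 and 4.14 for heterozygous cells.

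Among the complement receptors, Cd93, a surface glycoprotein once described as a C1q receptor, read 10.00, 10.12 and 9.86 in deficient cells, 8.02, 9.33 and 9.33 for homozygous wild type and 8.13, 7.70 and 8.63 for heterozygous cells. The deficient arrays were the highest, with a difference of 1.47 that did not pass (limma adjusted p = 0.114) and of 1.14 at a second probe. Itgax, the alpha chain of complement receptor 4, differed by 0.54 (limma adjusted p = 0.35) and by 0.21 at its other probe. C5ar2, the second C5a receptor, differed by -0.37 and Itgb2, the shared integrin beta chain, by 0.24. Vsig4, a C3b receptor of tissue macrophages, and Itgam did not pass the filter.

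In the classical and lectin branch, C4a read 7.45, 7.41 and 4.25 in deficient cells, 4.90, 4.28 and 7.17 for homozygous wild type and 4.22, 4.24 and 4.24 for heterozygous cells. It was not detected on deficient replicate 3, homozygous wild type replicate 2 or any heterozygous array, so its fitted difference of 1.53 (limma adjusted p = 0.474) rests partly on values at background. A second C4a probe, likewise not detected on any heterozygous array, differed by 0.39. C4b differed by 0.60 (limma adjusted p = 0.580) at its brightest probe, with 2 others at 0.12 and -0.39. C4a and C4b are near-identical copies whose probes may read each other. C1s1, a protease of the C1 complex, differed by -0.14 at its brighter probe and by -0.52 at the other. Fcnb, a ficolin, differed by -0.38, with a dimmer probe, not detected on any deficient array, at -0.84 (limma adjusted p = 0.347). Of the terminal components all 7 had a passing probe and 6 had a negative difference, led by C8g at -0.65 (limma adjusted p = 0.503), C9 at -0.54 (0.632) and C8a at -0.53 (0.46), and none passed. C8g was not detected on any deficient array and C6 on only 1, so their differences rest partly on values at background. Among the surface inhibitors, Cr1l differed by -0.25, with a second probe at 0.17, and Cd59a, not detected on any deficient array, by -0.68, neither passing. Csmd1 differed by -0.06, with a second probe at -0.96 (limma adjusted p = 0.381).

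**Figure D4:**
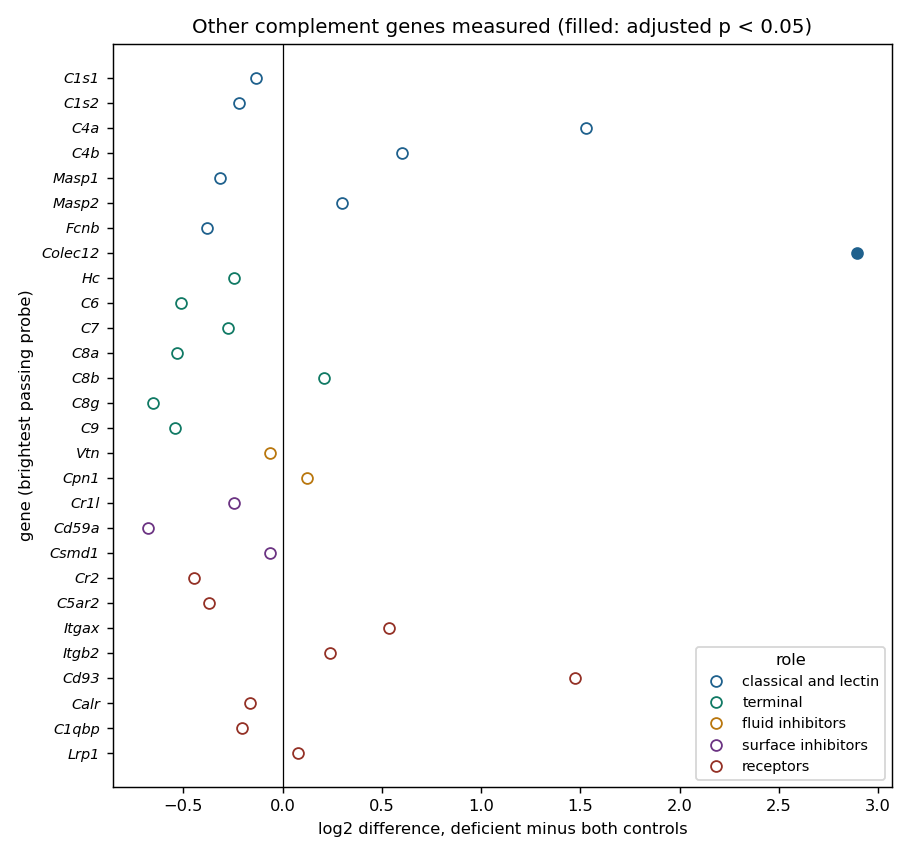
Log2 difference between deficient cells and both controls (x axis) of the 28 other complement genes with a passing probe (y axis, brightest probe), coloured by role. The filled point, Colec12 at a fitted 2.89 with all control arrays below detection, passed an adjusted p of 0.05, and the 7 terminal components lie between -0.65 and 0.21.

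On average, markers of monocytes and interstitial macrophages, the latter known for C1q expression, had the same order of groups as C1qb. Of 12 such markers 7 were measured, and their mean log2 signal per array ran from 7.88 to 8.00 in deficient cells, 6.95 to 7.42 for homozygous wild type and 6.38 to 6.74 for heterozygous cells. Of the 7, Apoe, the lipid carrier of such macrophages, was called against both controls (log2 difference 2.90, limma adjusted p = 0.00698), and 6 had a positive difference. Folr2 went the other way at -0.39 (limma adjusted p = 0.625). Between homozygous wild type and heterozygous cells 5 of the 7 had a positive difference, and 0 were called. From both controls Csf1r differed by 1.92 (limma adjusted p = 0.0618), Cx3cr1 by 1.11 (0.433), Cd14 by 1.02 (0.173), Tmem119 by 0.27 (0.714) and Ms4a7 by 0.20 (0.843). Against heterozygous cells alone 2 of the 7 were called higher, Apoe and Csf1r (Csf1r 2.56, limma adjusted p = 0.0259). Ccr2 and Lyve1 were not detected on any array. The mean of the alveolar macrophage markers ran the other way, from 8.17 to 8.49 in deficient cells, 8.99 to 9.15 for homozygous wild type and 9.23 to 9.50 for heterozygous cells. Siglecf (itself used in the sort) and Marco were called lower in deficient cells, and Pparg itself is part of the mean. Of the 8 measured, 2 had a positive difference, Itgax at 0.54 and Plet1 at 0.04, and Chil3 differed by -0.17 at its brightest probe, none of these 3 called. Krt79, also in the mean, was detected on heterozygous arrays only and was called lower in deficient than in heterozygous cells (fitted -2.55, limma adjusted p = 0.00919). Between homozygous wild type and heterozygous cells it was at a fitted -2.25 (limma adjusted p = 0.121). There 4 of the 8 markers had a positive difference and 0 were called, so not all markers shared the order of the 2 control means. Of 7 lung epithelium markers 6 were measured, their mean running from 6.69 to 7.24 in deficient cells, 6.36 to 6.49 for homozygous wild type and 6.50 to 7.32 for heterozygous cells, and 3 of the 6 had a positive difference. Hopx was called higher in deficient cells (2.15, limma adjusted p = 0.0104), while Epcam, not detected on any deficient array, had a fitted difference of -2.03 (0.28). The pan macrophage list had 4 of 5 markers measured, that of neutrophils 2 of 8, of eosinophils 1 of 5, of dendritic cells 3 of 6, of lymphocytes (T, B and NK cells) 2 of 7, and of endothelium and stroma 4 of 6. None of those measured passed in the limma fit against both controls. The neutrophil gene S100a8, not detected on any heterozygous array, had a fitted difference of 1.33 (limma adjusted p = 0.151), and Csf3r differed by -0.59 (0.423). The part of any marker list in the C1qb and C3ar1 results was not tested.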

How the data were processed

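Per the labels' protocols, cells were sorted and lysed at once, RNA was extracted with an RNEasy Plus Micro kit and amplified with the NuGEN Ovation Pico WTA system, which can alter relative levels, and biotin-labelled. The authors deposited non-normalized probe intensity values and, beside each, a detection p-value, per the file headers; no source used here names the software. A table of the authors' normalized intensity values, of unstated method, was used as an alternative. Each detection column matched its own signal column best on 9 of 9 arrays. Array number limits the precision.

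Probes were named through current gene identifiers or accessions (35784 of 46237 had 1 symbol, 10453 none). Signals were corrected with limma 3.58.1 (R 4.3.3) by normexp, with negative-control statistics inferred from detection p and an offset of 16, then quantile-normalized and taken to log2. Probes with detection p under 0.05 on at least 3 arrays (21946) were fitted with 1 mean per group over 9 arrays, tested by lmFit and eBayes, adjusted by Benjamini-Hochberg over all of them and called at an adjusted p under 0.05. The procedure was tested on simulated data.

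All member probes are described. Of 52 other complement genes, any with a called probe and up to 6 more by smallest p are named by rule; further ones were chosen after their values were seen, as were the promoter motifs. Like profiles are the 5 nearest named genes. The members, lists and markers were chosen with earlier results of these data known. Alternatives covered background correction, normalization, the filter, probe summary, groups fitted, array weights, a replicate block and leaving out each array.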

Additional observations from a re-analysis of the deposited data

How the results depend on the processing

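Direction and call of C3ar1 against both controls and against heterozygous cells were kept under every alternative that could be fitted. This is not independent support, because C3ar1 could pass the filter only through deficient cells. Without any 1 deficient array C3ar1 and C1qc no longer passed the planned filter. C1qb kept its direction in all comparisons. Its call against both controls, and so the count of member probes called, ended with no filter on dim probes (1 called), with both controls as 1 group (1) and with the median raw signal as covariate (1), the last chosen after seeing the data; against heterozygous cells the covariate also left 1. Fitting only the groups compared left 0 members called against homozygous wild type cells. Leaving out single arrays gave 0 to 2 members called against both controls, 1 to 2 against heterozygous cells and 0 to 1 versus homozygous wild type cells. The causes were not tested.

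Over all probes, 151 were called against both controls, and 306 with normexp on signals alone, 407 without background correction, 385 in the authors' table, 94 with the brightest probe per gene (fewer rows), 54 with the covariate and 26 to 183 without single arrays. Against heterozygous cells 224 were called, and under the same settings 419, 508, 469, 129 and 50, with 148 unfiltered and 52 to 285 without single arrays. Against homozygous wild type cells 38 were called, and likewise 69, 90, 86 and 24, with 7 when only those groups were fitted and 2 to 32 without single arrays. Homozygous wild type minus heterozygous gave 5, and 9 without background correction, 3 without normalization, 17 in the authors' table, 2 unfiltered, 3 with probes averaged per gene, 3 with only those groups, 9 with array weights, 1 with the covariate and 1 to 9 without single arrays. Without normalization the median of all probes against both controls was -0.29 (main -0.07) and higher calls were 59.7% of calls (main 76.2%); against homozygous wild type cells they were 52.9% (main 68.4%). Without deficient replicate 1, higher calls against both controls were 38.5% of 26 calls, so the balance turned, and with the probes of the full filter kept they were 64.8% of 54.

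Whether the replicate numbers pair the samples could not be settled. Deviations of same-numbered arrays correlated at -0.06 to 0.23, and those of differently numbered arrays at -0.28 to 0.18. Between the groups of homozygous genotype, same-numbered arrays correlated at 0.18, -0.06 and 0.15. With the replicate number as a block over 9 arrays, 113 probes were called against both controls, 163 against heterozygous cells, 25 versus homozygous wild type cells and 3 between the controls. The block over homozygous arrays alone called 0 probes and 0 members (C3ar1 limma adjusted p = 0.381).

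Reversals touched only values that were not called. Without normalization C1qa was -0.043 against both controls, -0.036 against heterozygous and -0.051 against homozygous wild type cells, C5ar1 -0.062 against both and -0.17 against homozygous wild type cells, Cfp -0.063 against homozygous wild type cells, and C1qc -0.017 between the controls. With the covariate C1qa was -0.31, -0.38, -0.23 and, between the controls, -0.14; C5ar1 -0.12, -0.15, -0.098 and -0.048; Cfp -0.0089 against homozygous wild type cells; C1qc -0.39 between the controls. C5ar1 was -0.012 against homozygous wild type cells in the authors' table, and array weights gave -0.036 for C5ar1 and -0.02 for C1qc between the controls. Without single arrays C1qa ran from -0.89 to 1.35 against both controls, -0.82 to 1.42 against heterozygous cells, -0.96 to 1.29 versus homozygous wild type cells and -0.076 to 0.41 between the controls. C5ar1 ran from -0.14 to 0.24, -0.11 to 0.27, -0.17 to 0.22 and -0.095 to 0.17 in the same comparisons, C3 from -0.12 to 0.27 against heterozygous cells, Cfp from -0.053 to 0.22 against homozygous wild type cells and C1qc from -0.091 to 0.27 between the controls. With the probes of the full filter kept (chosen after seeing the data), leaving out deficient replicate 1, 2 or 3 gave 54, 66 and 154 calls against both controls, 83, 100 and 196 against heterozygous cells and 9, 25 and 49 versus homozygous wild type cells. Reversals there were C1qa at -0.89 (replicate 1) and -0.16 (replicate 3) and C5ar1 at -0.0081 (replicate 1) and -0.14 (replicate 3) against both controls, C1qa at -0.82 (replicate 1) and -0.096 (replicate 3), C5ar1 at -0.11 (replicate 3) and C3 at -0.018 (replicate 2) against heterozygous cells, and C1qa at -0.96 (replicate 1) and -0.23 (replicate 3), Cfp at -0.053 and C5ar1 at -0.035 (both replicate 1) and C5ar1 at -0.17 (replicate 3) versus homozygous wild type cells. Values of C1qb, C1qc and C3ar1 in groups near background are limited by signal over background.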
